A study of Caenorhabditis elegans with 8 samples.

Results

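The 10 genes studied encode proteins of the P granule, the RNA and protein condensate of the Caenorhabditis elegans germ line, and were followed across 8 RNA-seq libraries. They were pgl-1, pgl-3, glh-1, glh-2, glh-4, deps-1, meg-1, meg-2, meg-3 and meg-4, chosen by name and not by a measured value. The choice was made with earlier results of these data known. All 10 were found among the 13335 genes listed in both deposited tables, which held 13692 genes for embryos and 16249 for larvae. Of these, 8 stood under the symbol used here. In the tables meg-3 (WBGene00001569) was listed as gei-12 and meg-4 (WBGene00016485) as C36C9.1, and both were matched by gene ID through the reference table of gene names.

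The libraries came from mixed-stage embryos and from larvae of the first stage (L1), all grown at 20 °C. In each stage the laboratory strain N2, labelled wild type, was compared with FAS43, a strain that lacks the replacement histone H3.3 and carries the alleles his-71(ok2289) X and his-72(tm2066) III together with the double allele his-69&his-70(uge44) III and with his-74(uge18) V. There were 4 groups of 2 libraries: N2 embryos, FAS43 embryos, N2 L1 and FAS43 L1. Whole embryos or larvae were extracted, so that germ cells were measured together with all somatic cells.

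P granules are built on the self-associating PGL proteins, hold the Vasa-related GLH helicases through much of development, and gather mRNAs and small-RNA pathway proteins outside the nuclear pores of germ cells. In the early embryo they are sorted into the cells of the germ lineage, a step that depends on the disordered MEG proteins, whose genes are expressed in the maternal germ line. A newly hatched L1 larva holds a pair of germline founder cells among its many somatic cells, and at both stages whole-animal RNA is therefore mostly somatic.

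Totals ran from 17408914 to 30127179 counts per library, and counts of the 10 genes ranged from 28 to 4496. The strain labels were checked on his-71, with 2412 and 2461 counts in N2 embryos and 4595 and 4020 in N2 L1, against 2 and 3 in FAS43 embryos and 6 and 6 in FAS43 L1. The FAS43 libraries also held 29, 32, 98 and 162 counts of his-72, where N2 libraries held at least 10881. Genes of early zygotic transcription, body wall muscle, intestine, neurons, the germ line and 7 other lists were detected in every library. Among their genes tested in both stages, 0 had a count of 0 in any library. Only genes with at least 10 counts in their second-highest library of a stage were listed, so this was largely fixed beforehand. Summed body wall muscle genes gave 993 to 2809 CPM (counts scaled to a common library size) in embryos and 10816 to 21401 in L1, and early zygotic regulators gave 498.3 to 1227 CPM in embryos and 47.9 to 244.2 in L1. These lists moved between libraries of 1 group too: FAS43 embryo replicate 1 stood at 2777 CPM for muscle and replicate 2 at 993, and FAS43 L1 replicates 1 and 2 stood at 2308 and 11847 CPM for intestine. Nothing in the labels says that replicates came from separate cultures, so the p-values below measure no more than how far libraries of a group differ, and that may be technical.

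The 10 genes lie on 4 chromosomes in the build WBcel235. The PGL genes pgl-1 (chromosome IV, 6974441 to 6977318, minus strand) and pgl-3 (chromosome V, 4755979 to 4758587, plus strand) encode RNA-binding scaffold proteins of 771 and 693 codons, the stop codon not counted. The helicase genes glh-1, glh-2 and glh-4 lie on chromosome I, at 6854478 to 6857536, 6513928 to 6517507 and 3727027 to 3731179, all on the plus strand, with 763, 974 and 1156 codons. The gene deps-1 (chromosome I, 506473 to 509056, plus strand, 619 codons) encodes a constitutive P granule protein needed for normal PGL and GLH accumulation. All 4 MEG genes lie on chromosome X, in 2 pairs of relatives. The first pair, meg-1 (13927036 to 13929634) and meg-2 (13922643 to 13926129), share the minus strand, lie 906 bases apart and have 0 coding genes between them. The second pair, meg-3 (1986469 to 1989607, minus strand) and meg-4 (1682954 to 1686419, plus strand), lie 300049 bases apart with 50 coding genes between them. Of the 10 genes, deps-1 alone overlapped another annotated gene, the coding gene Y65B4BL.7 on the opposite strand, by 109 bases. Libraries were stranded but the strand setting of the counting is not given in the sources used here, so part of the deps-1 counts could belong to Y65B4BL.7. How reads matching several places were treated is not given either, which leaves the split between related genes of the GLH, PGL and MEG families uncertain.

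Compared per kilobase of exon, N2 embryos held most RNA of meg-1, pgl-1 and deps-1 and least of pgl-3. These levels are CPM on 1 scaling of all 8 libraries, divided by exon length. In N2 embryos meg-1 stood at 32.2 ± 9.82 CPM per kb (SD, n = 2), pgl-1 at 26.8 ± 6.48 and deps-1 at 23.4 ± 2.49, and the range of pgl-1 overlapped both of the others. Next came meg-3 at 17.6 ± 2.76 and glh-1 at 13.99 ± 1.65, each apart from its neighbours. The second-tier MEG genes meg-4 (7.02 ± 2.40) and meg-2 (6.26 ± 2.69) overlapped, as did glh-2 (3.32 ± 1.38) and glh-4 (2.66 ± 0.873). The order closed with pgl-3 at 1.31 ± 0.649 CPM per kb.

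In N2 L1 the order was led by the helicase gene glh-1, at 18.5 ± 2.31 CPM per kb, with both libraries above every other member. Behind it pgl-1 (9.56 ± 2.39), meg-1 (8.26 ± 8.59), meg-3 (7.74 ± 3.73) and deps-1 (7.50 ± 0.921) overlapped. The last 5, glh-4 (3.12 ± 0.784), glh-2 (2.48 ± 0.248), pgl-3 (2.40 ± 1.24), meg-4 (1.91 ± 1.39) and meg-2 (1.74 ± 1.70), could not be ordered either. FAS43 L1 had meg-1 (30.4 ± 16.7) and pgl-1 (24.8 ± 12.5) ahead of glh-1 (19.6 ± 0.837), meg-3 (17.6 ± 5.56) and deps-1 (17.1 ± 5.61), again with overlapping ranges. In FAS43 embryos the SD of meg-1 (41.1 ± 40.0), pgl-1 (33.6 ± 32.6), deps-1 (27.5 ± 19.4) and meg-3 (24.6 ± 22.4) was close to the mean for meg-1 and pgl-1, and no order among these 4 held.

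**Figure D1:**
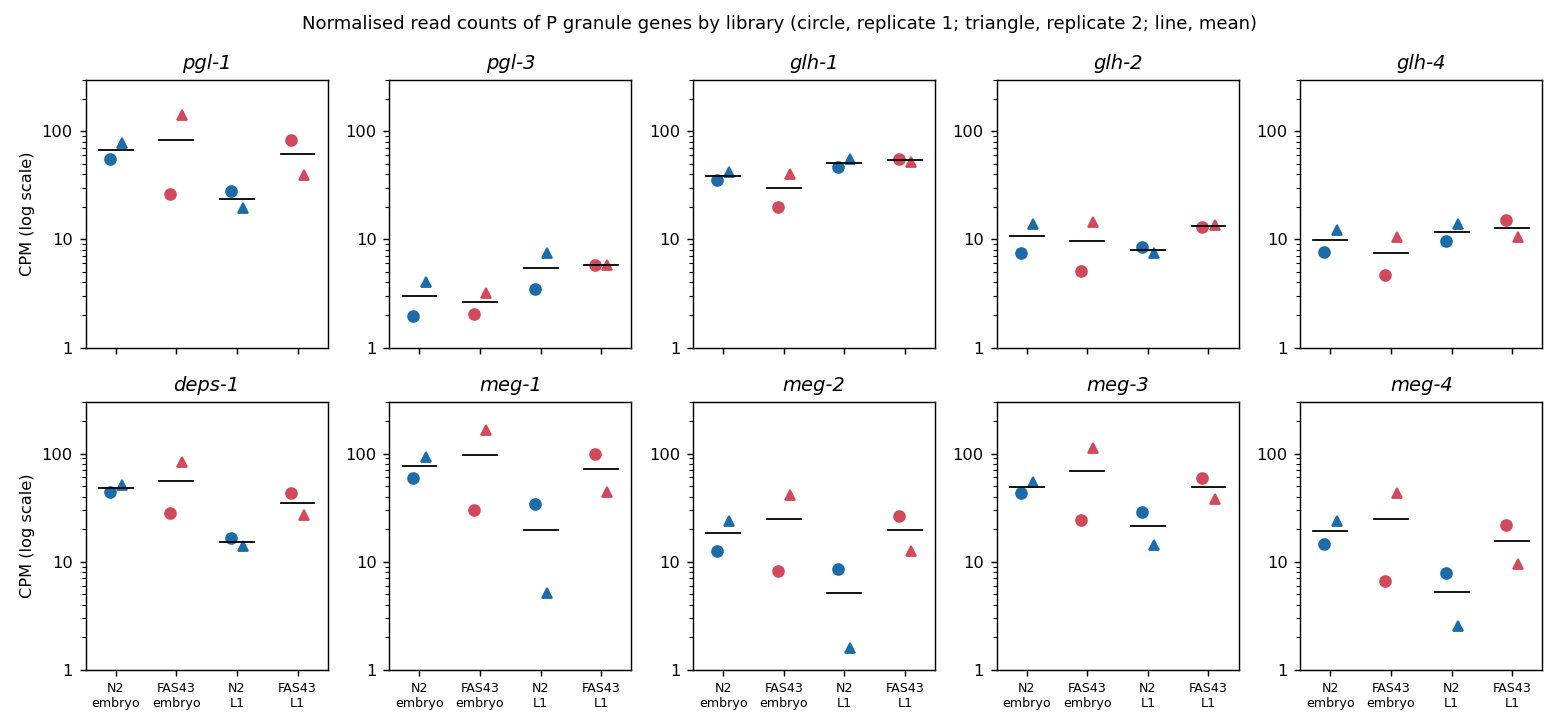
Normalised read counts (CPM, log scale) of the 10 P granule genes, 1 panel per gene, by group; circles are replicate 1, triangles replicate 2 and lines the mean of 2 libraries. The MEG genes, pgl-1 and deps-1 spread widely in FAS43 embryos and lie low in N2 L1, while glh-1, glh-4 and pgl-3 vary less and are not low in N2 L1.

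In embryos, differences between FAS43 and N2 stayed within the spread of the libraries for all 10 P granule genes. The scaffold gene pgl-1 had 55.5 and 78.3 CPM in the 2 N2 embryo libraries and 26.2 and 141 in the 2 FAS43 libraries. For meg-1 the values were 59.8 and 92.6 against 30.2 and 164. In both genes the FAS43 libraries bracketed the N2 libraries, and the same was true of deps-1 (44.3 and 51.5 against 28.2 and 84.2) and of the other 3 MEG genes. The germ granule nucleators meg-3 and meg-4, whose proteins coat the surface of embryonic P granules and bind RNA, had 43.5 and 54.3 against 24.3 and 112 CPM, and 14.4 and 23.6 against 6.58 and 42.9 CPM. For meg-2 the values were 12.7 and 23.7 in N2 and 8.25 and 41.7 in FAS43. The helicase genes spread less, with 35.5 and 42.0 against 19.8 and 40.3 CPM for glh-1, 7.53 and 13.8 against 5.12 and 14.4 for glh-2, and 7.64 and 12.3 against 4.69 and 10.44 for glh-4. The least abundant member, pgl-3, had 1.95 and 4.05 CPM in N2 and 2.05 and 3.17 in FAS43.

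No member passed the test in embryos. By edgeR's quasi-likelihood F-test with Benjamini-Hochberg adjustment over 13617 genes, 0 of 10 were called higher and 0 lower at an adjusted p under 0.05, where 0.00734% and 0.0147% of all genes tested were called. The count at an unadjusted p under 0.05 was also 0 of 10 (0.595% of genes higher and 0.103% lower), and DESeq2 called 0. Fold changes ran from -0.48 (SE 0.773) for glh-4 to 0.45 (SE 0.644) for meg-3 on the log2 scale, all with an adjusted p of 0.9999. Their median was 0.23, beside -0.08 over all genes, and 6 were positive. For 0 of 10 members did the 2 groups separate, against 3.49% of genes higher and 7.46% lower. As for significance marks in embryos, 0 of 10 members carry one in the authors' deposited table (0.511% of listed genes marked higher and 0.102% lower).

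The sign of these values followed whichever FAS43 embryo library was kept. Without FAS43 embryo replicate 1 all 10 fold changes were positive, with a median of 0.96, and without replicate 2 all were negative, with a median of -1.22. Replicate 2 exceeded replicate 1 by 6.53-fold for meg-4, 5.44-fold for meg-1, 5.38-fold for pgl-1, 5.06-fold for meg-2 and 4.63-fold for meg-3. The same ratio was 2.99 for deps-1, 2.81 for glh-2, 2.23 for glh-4, 2.03 for glh-1 and 1.55 for pgl-3. Between the 2 N2 embryo libraries the ratio of replicate 2 to 1 reached 2.07 at most, for pgl-3. Other lists moved with this split: in FAS43 embryo replicates 1 and 2, P granule regulators summed to 5850 and 8043 CPM, the germline program to 1082 and 2129, late embryo cuticle and matrix genes to 7071 and 4303, and body wall muscle genes to 2777 and 993. The part of these differences in the values of the P granule genes was not tested. With all libraries kept, 0 genes of any of the other 12 lists were called in embryos by edgeR, and their medians ran from -0.39 for late embryo cuticle and matrix and for body wall muscle to 0.03 for neurons.

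**Figure D2:**
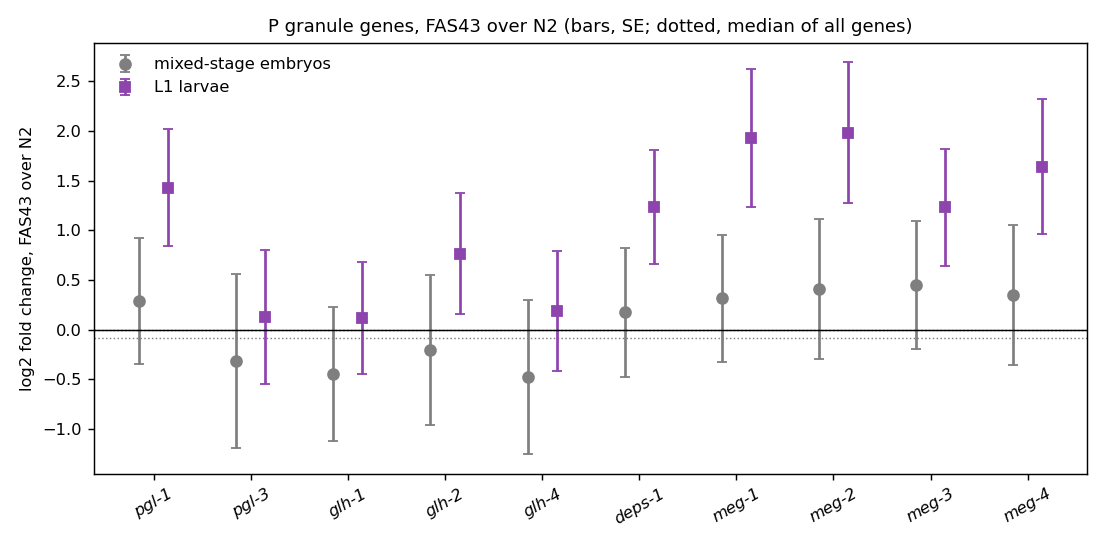
Log2 fold change of FAS43 over N2 for each P granule gene in embryos (grey circles) and L1 larvae (purple squares), with SE bars; the dotted line is the embryo median of all genes, -0.08. In L1 all 10 points are positive, from 0.12 for glh-1 to 1.98 for meg-2, and in embryos they lie on both sides of 0.

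In L1 larvae the MEG genes, pgl-1, deps-1 and glh-2 had a higher CPM in both FAS43 libraries than in either N2 library, but none was called. The scaffold gene pgl-1 had 28.04 and 19.6 CPM in N2 L1 and 83.9 and 39.8 in FAS43 L1. The fitted log2 fold change was 1.43 (SE 0.593, unadjusted p = 0.0225, adjusted p = 0.9996, edgeR). The FAS43 L1 libraries of pgl-1 lay apart from those of N2, and replicate 1 was the higher of the 2.

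Of the 10 genes, meg-2, meg-1 and meg-4 had the largest fold changes, and meg-3 lay under pgl-1 and deps-1. For meg-1, needed with meg-2 for germ cell proliferation and fertility, the CPM were 33.9 and 5.17 in N2 L1 and 99.9 and 44.1 in FAS43 L1, from 1015, 92, 2747 and 874 counts. Its log2 fold change was 1.93 (SE 0.696, unadjusted p = 0.00956, adjusted p = 0.9996, edgeR). Its neighbour meg-2 had 8.58 and 1.57 CPM against 26.5 and 12.5, a log2 fold change of 1.98 (SE 0.710, unadjusted p = 0.00926). N2 L1 replicate 2 was the lowest of the 8 libraries for both genes. The log2 fold change of meg-1 ranged from 1.11 without FAS43 L1 replicate 1 to 3.78 without N2 L1 replicate 1, and that of meg-2 from 1.23 to 3.61 with the same libraries left out. The other pair gave 28.8 and 14.2 against 59.8 and 38.03 CPM for meg-3, a log2 fold change of 1.23 (SE 0.585, unadjusted p = 0.0445), and 7.85 and 2.53 against 21.7 and 9.55 CPM for meg-4, 1.64 (SE 0.682, unadjusted p = 0.0229). For deps-1 the CPM were 16.7 and 13.996 in N2 and 43.0 and 26.8 in FAS43, which gave 1.24 on the log2 scale (SE 0.572, unadjusted p = 0.0394). In all 5 genes the higher FAS43 library was replicate 1.

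Of the remaining genes, 3 overlapped between the strains. The helicase gene glh-1 had 46.6 and 55.6 CPM in N2 L1 and 55.8 and 52.5 in FAS43 L1, and the fitted difference was 0.12 on the log2 scale (SE 0.561). For glh-4 the CPM were 9.62 and 13.8 against 15.3 and 10.51, a log2 fold change of 0.19 (SE 0.606). The paralogue pgl-3 had 3.47 and 7.48 CPM in N2 and 5.85 and 5.76 in FAS43, 0.12 on the log2 scale (SE 0.674). For glh-2 the groups did separate, with 8.55 and 7.42 CPM against 12.9 and 13.7, and the log2 fold change was 0.77 (SE 0.610, unadjusted p = 0.219).

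Over 16099 genes tested in L1, edgeR called 0 of the 10 members higher and 0 lower (0.00621% and 0.0124% of genes), and DESeq2 also called 0. At an unadjusted p under 0.05, 6 members stood higher by edgeR and 6 by DESeq2, where 1.8% and 2.04% of all genes did, and by edgeR 0 stood lower, where 1.58% did. Both methods gave pgl-1, deps-1 and the 4 MEG genes. The log2 CPM of these 6 correlated with one another at r = 0.89 to 0.996 over the 8 libraries, so they are not 6 separate observations. The groups separated with FAS43 above N2 in 7 members, against 12.9% of genes. The median log2 fold change of the members was 1.23, beside -0.004 over all genes, and 10 of 10 were positive, beside 49.7% of genes. As the members were chosen with earlier results of these data known, these shares are descriptions. The authors' deposited table marked 6 members as significant and higher (1.9% of listed genes) and 0 as lower (1.67%); the 6 were pgl-1, deps-1 and the 4 MEG genes, with an adjusted p of 0.9998 in that table for each. These counts rest on particular libraries: without FAS43 L1 replicate 1 the median was 0.73 with 8 positive, without N2 L1 replicate 2 it was 0.92 with 10 positive, and in either case 0 members had an unadjusted p under 0.05. With all 8 libraries in 1 fit the number was 2. Fewest members were positive without N2 L1 replicate 1, where 7 were, with a median of 1.47, and pgl-3, glh-1 and glh-4 turned negative. On counts simulated for the L1 comparison over 15882 genes, the share of altered genes that were called was 78% at 8-fold, 26% at 4-fold and 2% at 2-fold. The altered genes, 50 per fold, left out those of low abundance and were given the spread usual at their abundance. The shares need not hold for a member with more spread. In bulk RNA, a different number of germ cells and a different amount of RNA per cell cannot be told apart.

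Several other lists, not all of them of the germ line, stood in the same position in L1, with 0 genes called in any list in either direction. Of all genes tested in L1, 49.7% were positive and 1.8% stood higher at an unadjusted p under 0.05 by edgeR. Among the 20 other P granule constituents, 18 fold changes were positive, 3 had an unadjusted p under 0.05 (wago-1, mip-2 and edg-1), and the median was 0.86. The abundant helicase gene vbh-1 had 394.7 and 64.4 CPM in N2 L1 and 347.5 and 411.5 in FAS43 L1, so its log2 fold change of 0.74 (SE 0.735) rested on N2 L1 replicate 2 and was -0.0424 without it. The P granule regulators, which include the kinases and zinc finger proteins that sort granules in the zygote, had 18 of 20 positive, a median of 1.14 and 9 at an unadjusted p under 0.05. The germline program had 24 of 25 positive, a median of 0.74 and 7 at an unadjusted p under 0.05. Adjacent germ granules had 21 of 21 positive with a median of 0.80, and synMuv B repressors 15 of 15 with a median of 0.66. In each of these last lists 0 had an unadjusted p under 0.05. Early zygotic regulators had 10 of 12 positive, a median of 1.41 and 4 at an unadjusted p under 0.05 (pes-10, vet-6, sdz-28 and pal-1). Genes of yolk and oocyte provisioning had 9 of 11 positive, 2 at an unadjusted p under 0.05 (puf-5 and puf-11) and a median of 0.69. Among somatic lists, intestine had 8 of 9 positive with a median of 0.45 and neurons 7 of 10 with a median of 0.09. Hypodermis had 4 of 9 positive (median -0.16), late embryo cuticle and matrix genes 6 of 14 (-0.13) and body wall muscle 2 of 10 (-0.51).

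Early zygotic genes differed along with the P granule genes across the L1 libraries. The 10 members summed to 192.1 and 141.4 CPM in N2 L1 and 424.7 and 253.4 in FAS43 L1, so that FAS43 replicate 1 was the highest. Early zygotic regulators summed to 72.2 and 47.9 CPM in N2 L1 and 244.2 and 89.7 in FAS43 L1, with the same replicate highest. The most abundant of them, vet-6, had 23.0 and 9.56 CPM in N2 L1 and 93.5 and 29.95 in FAS43 L1, and its fitted log2 fold change was 1.99 (SE 0.645, unadjusted p = 0.00453, adjusted p = 0.9996, edgeR). The order was another for later genes, although late embryo cuticle and matrix genes were again highest in FAS43 L1 replicate 1. In FAS43 L1 replicates 1 and 2 they summed to 3589 and 431 CPM, against 1960 and 2105 in N2 L1. Muscle genes summed to 10816 and 21401 CPM in FAS43 L1 replicates 1 and 2, and 10816 was their lowest value in L1. The part of these differences in the L1 result was not tested.

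**Figure D3:**
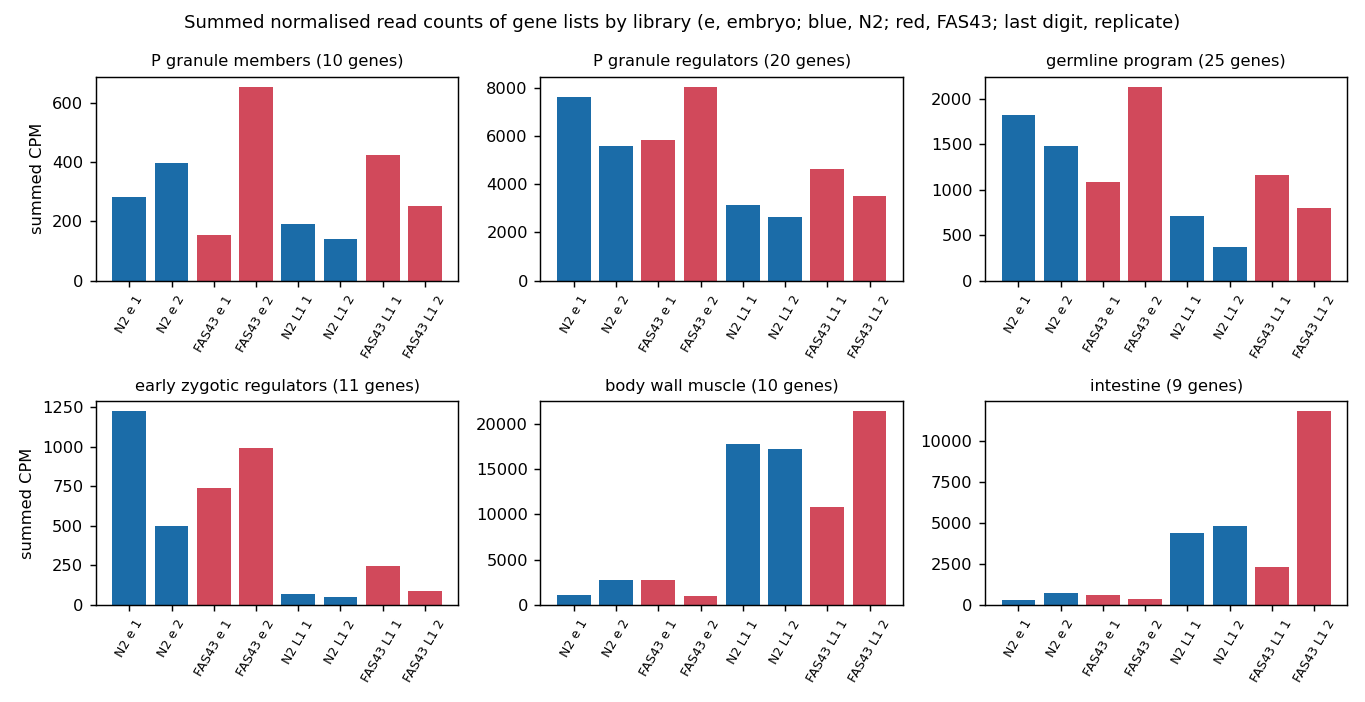
Summed CPM of 6 gene lists in each library, N2 in blue and FAS43 in red; each panel has its own axis from 0. P granule genes reach 654.6 CPM in FAS43 embryo replicate 2 and 424.7 in FAS43 L1 replicate 1, the L1 library in which early zygotic regulators are also highest (244.2) and muscle genes lowest (10816).

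Between stages, N2 L1 larvae held less deps-1 RNA than N2 embryos, and no other member passed the test. For deps-1 the 44.3 and 51.5 CPM of embryos stood against 16.7 and 13.996 in L1, and it fell by 1.64 on the log2 scale (SE 0.615, adjusted p = 0.0424, edgeR's quasi-likelihood test over 13335 genes). The 2 stages did not overlap. This was 1 of 10 members called lower, where 16.2% of all genes were, and 0 called higher, where 22.6% were. Among 10 genes, 1 call does not set the members apart from all genes. Leaving out any of the 4 N2 libraries ended the call, with an adjusted p of 0.0962 without embryo replicate 1, 0.0858 without embryo replicate 2, 0.118 without L1 replicate 1 and 0.179 without L1 replicate 2.

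The MEG genes and pgl-1 had larger or like differences with more spread. The log2 fold change of L1 over embryos in N2 was -1.96 for meg-1 (SE 0.811, adjusted p = 0.0627), -1.83 for meg-2 (SE 0.860, adjusted p = 0.0971), -1.87 for meg-4 (SE 0.843, adjusted p = 0.0853), -1.18 for meg-3 (SE 0.664, adjusted p = 0.162) and -1.49 for pgl-1 (SE 0.678, adjusted p = 0.0881). All 5 had both L1 libraries under both embryo libraries, as did deps-1, so that 6 members separated lower, against 35.6% of genes. At an unadjusted p under 0.05, 5 members stood lower (21.9% of genes) and 0 higher (27.3%), and DESeq2 called 3 lower (21.3% of genes), deps-1, meg-1 and meg-4, and 0 higher (25.3%). The difference was uneven between the L1 libraries. In N2 L1 replicate 1 the CPM of meg-1 exceeded that of replicate 2 by 6.55-fold, that of meg-2 by 5.45-fold, of meg-4 by 3.102-fold and of meg-3 by 2.03-fold, while for deps-1 the ratio was 1.19. Without N2 L1 replicate 2 the median of the members moved from -1.34 to -0.92 and 0 had an unadjusted p under 0.05.

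The helicase genes glh-1 and glh-4 did not share this direction, and neither did pgl-3. In N2 glh-1 gave 0.40 (SE 0.549, adjusted p = 0.579) with both L1 libraries above both embryo libraries, the only member to separate upwards, against 37.3% of genes. For glh-4 the value was 0.23 (SE 0.694), for glh-2 -0.42 (SE 0.708) and for pgl-3 0.86 (SE 0.738), each with an adjusted p above that of meg-3.

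In FAS43 the same comparison called 0 of 10 members (15.8% of genes higher, 9.66% lower) by edgeR, 0 at an unadjusted p under 0.05 and 0 by DESeq2. The values were -0.69 for deps-1 (SE 0.602), -0.44 for pgl-1 (SE 0.664), -0.43, -0.36, -0.48 and -0.66 for meg-1, meg-2, meg-3 and meg-4, 0.85 for glh-1 (SE 0.553), 0.77 for glh-4 (SE 0.699), 0.45 for glh-2 (SE 0.708) and 1.15 for pgl-3 (SE 0.744). Groups separated upwards in 3 members, pgl-3, glh-1 and glh-4, against 36.5% of genes, and downwards in 0, against 34.3%. Without FAS43 embryo replicate 2 all 10 values were positive with a median of 1.25, and without FAS43 embryo replicate 1 the median was -1.14 with 3 positive.

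The difference between the strains in this stage effect was tested as an interaction. Of all 13335 genes, edgeR and DESeq2 both called 0, and 0 of 10 members had an unadjusted p under 0.05 (0.06% of genes higher and 1.43% lower). Estimates ran from 0.29 (SE 1.04) for pgl-3 to 1.53 (SE 1.11, unadjusted p = 0.186, adjusted p = 0.9986, edgeR) for meg-1, with a median of 0.91 beside 0.02 over all genes. The test recovered 30% of genes given an 8-fold interaction on counts simulated for it in the same way over 13334 genes. The lower deps-1 level of N2 L1 is therefore not shown to differ from the smaller value in FAS43.

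**Figure D4:**
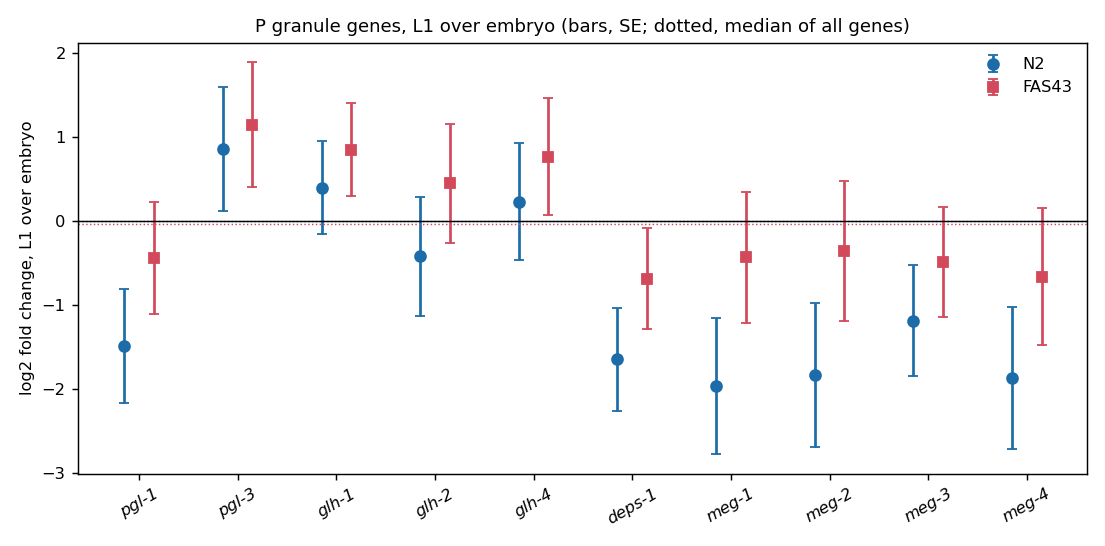
Log2 fold change of L1 over embryos for each P granule gene in N2 (blue circles) and FAS43 (red squares), with SE bars; the dotted lines are the medians of all genes, close to 0. In N2 pgl-1, deps-1 and the 4 MEG genes lie between -1.18 and -1.96, and in FAS43 between -0.36 and -0.69.

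Genes that act with the P granule were called lower as well when N2 larvae were set against N2 embryos, as 16.2% of all genes were. Of 20 regulators, 10 fell and 0 rose, with a median of -1.54, beside 0.001 over all genes. These included pos-1, a zinc finger RNA-binding protein of the germ lineage, which went from 1541 and 488.3 CPM to 108.4 and 48.0 (log2 fold change -3.70, adjusted p = 0.00175), sepa-1, a receptor for the autophagy of PGL proteins in somatic cells (-3.41, adjusted p = 0.00123), and pie-1, a repressor of transcription in germline blastomeres (-3.14, adjusted p = 0.00239). Of 20 other constituents, 4 fell, which is close to the 16.2% of all genes, and 0 rose, with a median of -0.83. Among the 4 were the LOTUS-domain genes mip-1 (-2.16, adjusted p = 0.0192) and mip-2 (-1.88, adjusted p = 0.0357) and the Argonaute gene wago-1 (-1.82, adjusted p = 0.0355). The fourth was drh-3, a helicase of the small-RNA pathway (-1.69, adjusted p = 0.0235). In adjacent germ granules 6 of 21 fell, led by mut-2 (-3.08), rde-8 (-2.39) and elli-1 (-1.99), and in the germline program 9 of 25 fell, led by the Nanos gene nos-2 (-3.90), cpb-3 (-2.51) and mrg-1 (-2.51). All adjusted p-values here are from edgeR's quasi-likelihood test. Without N2 embryo replicate 1 the numbers of genes called lower were 3 for regulators, 0 for other constituents, 1 for adjacent granules and 2 for the germline program.

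Other lists give the scale of the stage difference. In N2, 10 of 15 synMuv B repressors fell, led by lin-53, lin-35 and efl-1, 1 of 10 genes of yolk and oocyte provisioning fell (puf-11, -2.07), and 10 of 11 early zygotic regulators fell, led by pes-10 (-4.87), end-1 (-4.64) and sdz-28 (-4.52). Late embryo cuticle and matrix genes fell in 4 of 11, led by fbn-1 (-3.63), mlt-11 (-2.30) and let-653 (-2.26), and 2 of 7 hypodermis genes fell, elt-1 (-2.80) and lin-26 (-1.53). Differentiated tissues went the other way. In body wall muscle 9 of 10 rose, led by tnt-2 (5.70), unc-54 (4.04) and unc-27 (3.58), in neurons 8 of 10 rose and 1 fell, with egl-21 (5.42), egl-3 (4.89) and snt-1 (3.53) foremost, and in intestine 4 of 9 rose, with asp-1 (4.85), vha-6 (3.75) and ifb-2 (3.38) foremost. Without N2 embryo replicate 1, 2 muscle genes, 2 neuron genes and 0 intestine genes were called higher, and 5 synMuv B repressors, 0 genes of yolk and oocyte provisioning and 1 hypodermis gene lower. Late embryo cuticle and matrix genes called lower numbered 1 without N2 L1 replicate 2 and 8 without FAS43 L1 replicate 1.

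Ratios within a library do not depend on the scaling between libraries. They set some genes that kept their proportion to glh-1 apart from others that did not. The closest to a fixed proportion were the neighbours meg-1 and meg-2, whose counts stood at 3.29 to 4.72 to 1 over the 8 libraries, a 1.44-fold range. For glh-1 and glh-4 the ratio was 3.42 to 5, a 1.46-fold range, although glh-1 counts went from 368 to 1535. The MEG pair meg-3 and meg-4 kept within 2.44-fold and glh-1 and glh-2 within 2.67-fold. Relative to glh-1, the genes meg-1, meg-3, pgl-1 and deps-1 were far from a fixed proportion. The ratio of meg-1 to glh-1 went from 0.0929 in N2 L1 replicate 2 to 4.07 in FAS43 embryo replicate 2, a 43.8-fold range, that of meg-3 to glh-1 covered 10.9-fold, that of pgl-1 to glh-1 9.93-fold and that of deps-1 to glh-1 8.30-fold. Even the 2 PGL genes parted, with 2.62 to 44.4 counts of pgl-1 for each count of pgl-3, a 16.9-fold range. The ratios of pgl-3, meg-2 and meg-4 to glh-1 were not computed. Over the 8 libraries the log2 CPM of pgl-3 correlated with that of glh-1 at r = 0.84, against 0.12 for pgl-1.

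By library, meg-1 stood at 1.68 and 2.21 counts per glh-1 count in N2 embryos and 1.52 and 4.07 in FAS43 embryos, and at 0.727 and 0.0929 in N2 L1 and 1.79 and 0.840 in FAS43 L1. For deps-1 the figures were 1.25 and 1.23, 1.42 and 2.09, 0.357 and 0.252, and 0.771 and 0.511 in the same order of groups. All 4 embryo libraries therefore had more deps-1 than glh-1 counts and all 4 L1 libraries fewer, and within L1 both FAS43 libraries exceeded both N2 libraries. Divided by exon length, the deps-1 ratio in FAS43 L1 replicate 1 was 1.04, above 1 but under the lowest embryo value of 1.66. For pgl-1 the ratios were 1.56 and 1.87 in N2 embryos, 1.32 and 3.4996 in FAS43 embryos, 0.602 and 0.353 in N2 L1 and 1.503 and 0.757 in FAS43 L1. FAS43 L1 replicate 1 thus reached embryo values for meg-1 and pgl-1, while for deps-1 it stayed under them. These ratios are descriptions, made after the levels were seen, and carry no test.

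**Figure D5:**
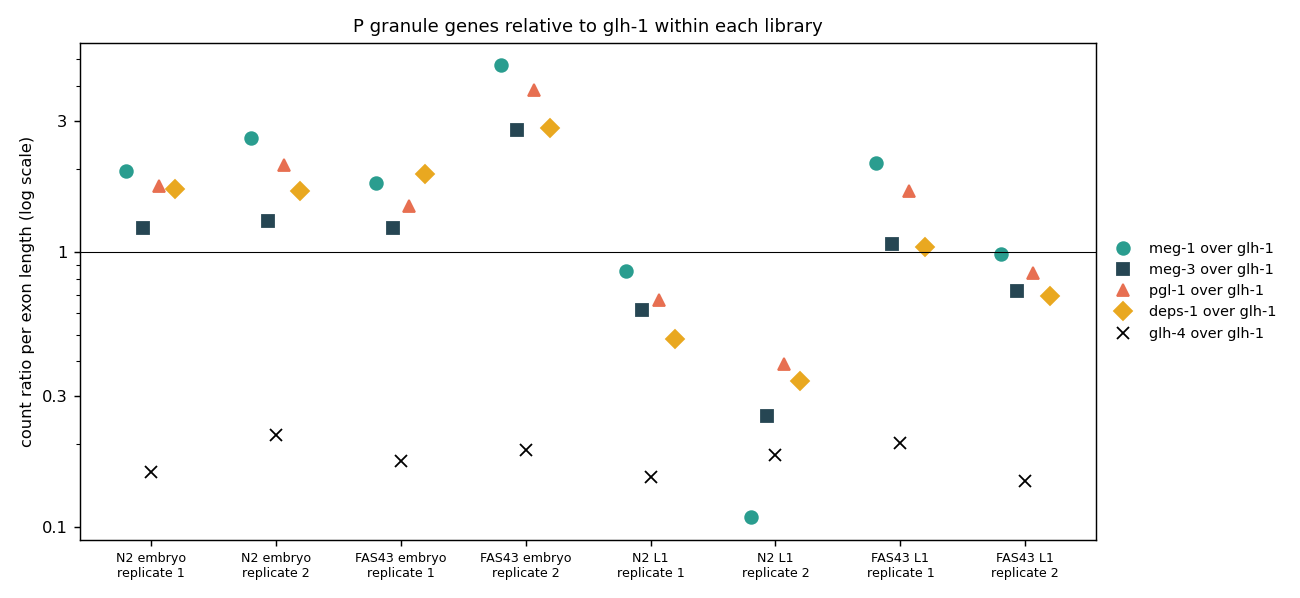
Counts of meg-1, meg-3, pgl-1, deps-1 and glh-4 relative to glh-1 within each library, both divided by exon length (log scale; points of 1 library are set side by side). The glh-4 crosses stay level, and the other 4 genes lie above 1 in all embryo libraries, under 1 in N2 L1, and above 1 in FAS43 L1 replicate 1.

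The genes whose levels over the 8 libraries were most like the mean of the 10 members were num-1 (Pearson r = 0.993), mex-1 (0.980), rpn-2 (0.977), rbpl-1 (0.975) and szy-4 (0.972), out of 6603 named genes with a mean of at least 5 CPM. These are descriptions over 8 libraries that differ in depth and stage, with no test. The members did not all move together. Their log2 CPM correlated at r = 0.95 for pgl-1 with deps-1, but at -0.36 for pgl-3 with deps-1 and -0.18 for glh-1 with deps-1. Likeness to the mean is therefore not likeness to each member. By Spearman's rank correlation 2 of these 5, num-1 and rbpl-1, were again among the first 5. The gene mex-1, a zinc finger protein that acts in sorting P granules to the germ lineage, had 47.4 and 100.4 CPM in N2 embryos, 27.1 and 165.6 in FAS43 embryos, 36.4 and 25.2 in N2 L1 and 127.5 and 55.4 in FAS43 L1. Like pgl-1 and meg-1 it was highest in FAS43 embryo replicate 2, and FAS43 L1 replicate 1 exceeded both N2 embryo libraries.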

How the data were processed

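Stranded mRNA libraries were made with a TruSeq kit from 1000 ng of Trizol-extracted RNA and sequenced as 50-base reads, per the labels' protocols. The authors deposited 1 table per stage that held unnormalized counts of reads per gene in 4 libraries. The build WBcel235 and the tools edgeR 3.10.5, HTSeq 0.6.1 and TopHat2 2.0.13 are named in the submitters' processing notes, without roles or settings. The authors also deposited, per the file headers, a normalized count signal per library, which was not tested, and for FAS43 over N2 a log2 fold change, a p-value, an adjusted p-value and a significance mark, which are quoted only where named. No gene is listed with fewer than 10 counts in its second-highest library, so rarer genes were not analysed here.

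The tests used these counts and edgeR 4.0.16 under R 4.3.3 (filterByExpr, TMM scaling, quasi-likelihood F-test, Benjamini-Hochberg adjustment over all genes tested, calls at an adjusted p under 0.05), also for every edgeR p-value in the text. Strains were compared within each stage alone, with 13617 and 16099 genes and 2 residual degrees of freedom. Stages and the interaction were tested in 1 fit of all 8 libraries, with 13335 genes and 4. All 10 P granule genes passed every filter. An SE is the absolute log2 fold change divided by the square root of F. Printed CPM use the scaling of all 8 libraries, so a strain's fold change can differ slightly from their ratio. The tests were tried on simulated counts first.

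DESeq2 1.42.0, its size factors, other filters, a replicate block, 1 fit for all libraries and leaving out each library were alternatives. Named list genes were up to 3 called genes with the largest change and at least 5 CPM per list and comparison, or the most abundant gene where none was called, of which only vbh-1 and vet-6 in L1 are printed, chosen after their values were seen; genes named to complete a count of 5 or fewer were picked afterwards. The members and lists were chosen with earlier results of these data known. Coordinates, exon lengths and overlaps come from the Ensembl annotation of WBcel235.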

Additional observations from a re-analysis of the deposited data

How the results depend on the processing

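With 2 libraries per group, no call on a P granule gene between the strains was made under any alternative run, and deps-1 in N2 between stages was the only call the main test made. DESeq2 size factors called 2 members lower there and DESeq2's Wald test 3, and the count over 8 fits that each left out a library ran from 0 to 3. A CPM filter moved the embryo median of all genes from -0.08 to 0.10 on the log2 scale, and that of the members from 0.23 to 0.41. Low counts limit pgl-3 (38 to 161 counts) and, in N2 L1, meg-2 and meg-4. With coding in place of exon length 6 of 40 levels per length moved by more than an SD, and the order of members changed in FAS43 embryos alone, for meg-2 and meg-4.

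The replicate numbers were not taken as pairs: deviations of same-numbered libraries correlated at -0.52 between strains in embryos and -0.18 in L1 (2 pairs each). A replicate block left 0 members called between strains, ended the deps-1 call (adjusted p = 0.0617) and that of elli-1 (0.0740), and called meg-1 (0.0311). With the block, embryo values turned to -0.25 for pgl-1, -0.11 for deps-1, -0.21 for meg-1, -0.035 for meg-2, -0.030 for meg-3 and -0.27 for meg-4. Crossing the numbers, added after seeing the data, called 16 genes higher and 2 lower in embryos and 2 higher and 4 lower in L1, of which 0 were members, with -0.25, -0.11, -0.21, -0.026, -0.028 and -0.25 for the same 6 genes in embryos. DESeq2's Wald test called 2 genes higher and 4 lower in L1, and 2108 lower between stages in FAS43. The cause of these changes was not tested.

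Leaving out 1 library at a time gave 1 to 21 genes called higher and 2 to 5 lower in embryos, 1 to 3 and 2 to 19 in L1, 1174 to 3147 and 509 to 2418 between stages in N2, and 237 to 2352 and 17 to 1580 in FAS43. The lone library left in a group was then taken to vary like the others. FAS43 over N2 in embryos ranged from -1.49 to 1.09 for pgl-1, -0.79 to 0.60 for pgl-3, -1.10 to 0.0746 for glh-1, -1.21 to 0.60 for glh-2, -1.23 to 0.20 for glh-4, -0.89 to 0.83 for deps-1, -1.48 to 1.11 for meg-1, -1.29 to 1.23 for meg-2, -1.14 to 1.22 for meg-3 and -1.68 to 1.18 for meg-4. In L1 it ranged from 0.67 to 1.92 for pgl-1, -0.39 to 0.76 for pgl-3, -0.0683 to 0.24 for glh-1, -0.22 to 0.50 for glh-4, 0.74 to 1.60 for deps-1, 0.76 to 1.77 for meg-3, 0.81 to 2.61 for meg-4 and -0.0424 to 2.52 for vbh-1. L1 over embryos ranged in N2 from -0.79 to 0.0849 for glh-2 and -0.0696 to 0.61 for glh-4, and in FAS43 from -1.19 to 1.24 for pgl-1, -0.11 to 1.38 for glh-2, -1.27 to 0.31 for deps-1, -1.23 to 1.25 for meg-1, -1.10 to 1.24 for meg-2, -1.20 to 1.01 for meg-3 and -1.47 to 1.25 for meg-4. The difference of the stage effect ranged from -0.33 to 0.94 for pgl-3 and -0.0143 to 2.20 for meg-3. Of the list gene values between stages in N2, 0 changed sign when a library was left out. Calls were lost in runs without an N2 library, on which this comparison rests, and, for elli-1 alone, without FAS43 L1 replicate 2.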
